A study of Mus musculus with 4 samples.

Results

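The 29 genes described here make cholesterol, control its synthesis, move and esterify it, limit its uptake or export it from the cell. They were taken by name from the gene list of the deposited matrices, where each of the 29 was found once among 32285 mouse genes. The rule itself uses no measured value. The 19 enzymes of synthesis were read as 2 runs of the pathway, the mevalonate and isoprenoid steps (Acat2, Hmgcs1, Mvk, Pmvk, Mvd, Idi1, Fdps, Ggps1) and the squalene and sterol steps (Fdft1, Sqle, Lss, Cyp51, Tm7sf2, Msmo1, Nsdhl, Hsd17b7, Ebp, Sc5d, Dhcr7). The others were read as control of sterol-regulatory element–binding protein 2 (Srebf2, Scap, Insig1), transport and esterification (Stard4, Soat1, Soat2), uptake (Mylip) and export (Abca1, Abcg5, Abcg8).

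Single-nucleus RNA-seq was performed on frozen liver of Bl/6 mice fed a chow diet (CD) or a low-protein diet (LPD) for 1 week before and 2 weeks after hydrodynamic tail vein injection, and each of the 4 groups is 1 library. On each diet 1 library is labelled control and 1 oncogene (spelled concogene in the labels). Where 4 values follow each other below, they stand for CD and then LPD, and within a diet for the control label before the oncogene label. Per the study's methods, the oncogene groups received human c-MET with β-catenin lacking its N terminus through the Sleeping Beauty transposon, which enters a minority of hepatocytes, and the control groups received vector. The study's methods describe male mice for this model, and the number of mice behind a library is not given in the sources used here. The label on a diet therefore has no replicate. Diet, with 2 libraries on each side, and cell class are given as values per library and were not tested, and their intervals (95%, exact) cover counting error only. Tests were made of the zone of the hepatocytes over the 4 libraries and of the difference in zone ratio between diets.

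The transgenes did not follow the CD labels. Of UMIs (unique molecular identifiers, the counted transcripts) from human c-MET and CTNNB1, the library labelled CD control held 100, the library labelled CD oncogene 0, the library labelled LPD control 0 and the library labelled LPD oncogene 6. The 2 CD groups also stand in the reverse order of nucleus number in the study's description and in these libraries. Exchanged CD labels would turn the direction of every CD oncogene over control value. Every direction below that involves a CD library therefore belongs to the library labelled so. Diet and sequencing depth cannot be told apart either. The CD libraries held 56514058 and 62869348 UMIs with median mitochondrial shares of 2.42% and 0.983%, and the LPD libraries 23260800 and 23172463 UMIs with 0.10% and 0.127%. Pairs of libraries shared 18 to 40 cell barcodes. After filtering, 30460 of 42877 nuclei lay in 5 hepatocyte clusters in which no list of markers of another cell type was raised.

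Cholesterol is built from acetyl-CoA through mevalonate, isoprenoid diphosphates, squalene and lanosterol. When membranes of the endoplasmic reticulum hold little sterol, Scap carries the Srebf2 protein to the Golgi, where it is cut to release a transcription factor that binds sterol regulatory elements in the promoters of synthesis genes, often beside CCAAT boxes bound by NF-Y. Insig1 holds Scap back when sterol is plentiful. The liver is the main organ of cholesterol synthesis and removes the surplus through bile.

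Promoters were read to show what the synthesis genes share beyond their place in the pathway. RefSeq windows of 250 bases before and 50 bases after the start site (GRCm38.p6) were found for 24 of the 29 members, as 29 windows. No window was found for Fdps, Fdft1, Sqle, Stard4 and Soat2. CCAAT, searched on both strands, occurred in 21 of the 29 windows, and in 15 of the 19 windows of synthesis members, against 37.4% of 32851 windows of the same length. The sterol regulatory element searched as TCACNCCAC on both strands occurred in 1 member, Hmgcs1, against 1.24% of all windows. The 2 motifs did not overlap in any member. The windows of 4 genes are given because their genes carry the differences described below, with motif letters in capitals, ATTGG being CCAAT on the other strand.
Hmgcs1 (chr13:119690101-119690400, + strand): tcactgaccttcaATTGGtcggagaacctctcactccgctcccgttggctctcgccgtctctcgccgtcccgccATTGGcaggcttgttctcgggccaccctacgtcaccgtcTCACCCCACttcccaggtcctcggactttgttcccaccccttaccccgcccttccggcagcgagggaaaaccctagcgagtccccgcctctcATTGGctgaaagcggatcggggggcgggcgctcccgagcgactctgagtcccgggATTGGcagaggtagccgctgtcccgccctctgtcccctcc
Cyp51 (chr5:4104648-4104947, - strand): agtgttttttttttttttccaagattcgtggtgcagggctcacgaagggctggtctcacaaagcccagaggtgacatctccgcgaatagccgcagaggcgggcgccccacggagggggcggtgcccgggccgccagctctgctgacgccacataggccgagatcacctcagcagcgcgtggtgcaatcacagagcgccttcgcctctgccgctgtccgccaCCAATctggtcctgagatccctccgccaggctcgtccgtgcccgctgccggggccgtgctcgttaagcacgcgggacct
Nsdhl (chrX:72918271-72918570, + strand): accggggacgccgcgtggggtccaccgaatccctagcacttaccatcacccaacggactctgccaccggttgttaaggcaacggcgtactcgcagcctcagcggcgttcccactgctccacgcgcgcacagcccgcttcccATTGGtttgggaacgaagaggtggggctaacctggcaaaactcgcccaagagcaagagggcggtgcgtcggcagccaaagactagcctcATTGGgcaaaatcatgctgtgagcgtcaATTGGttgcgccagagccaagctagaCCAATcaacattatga
Abcg8 (chr17:84682871-84683170, + strand): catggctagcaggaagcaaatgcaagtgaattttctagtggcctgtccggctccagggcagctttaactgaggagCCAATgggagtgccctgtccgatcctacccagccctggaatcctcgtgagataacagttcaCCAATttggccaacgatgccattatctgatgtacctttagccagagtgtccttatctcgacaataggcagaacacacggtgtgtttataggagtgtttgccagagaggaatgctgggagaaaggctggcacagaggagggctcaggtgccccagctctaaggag
Hmgcs1, the synthase that forms HMG-CoA, held the regulatory element 137 bases before the start site together with 4 CCAAT letters. Nsdhl, which removes a carboxyl group from C4 of the sterol ring, held 4 CCAAT letters, and Cyp51, the lanosterol 14-demethylase, held 1. Abcg8 and its partner Abcg5 lie head to head, and their windows share 209 bases. A match describes these letters only.

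The first comparison asked how the members differed between the library labelled oncogene and the library labelled control on each diet. Levels are CPM, that is UMIs of a gene scaled to the total UMIs of mouse genes, in hepatocyte nuclei, and 26 of the 29 members passed the filter on low values (at least 20 CPM in 1 library and at least 50 UMIs). The synthesis genes stood out in opposite directions on the 2 diets. On CD, 16 of the 18 synthesis members tested were at least 1.5-fold lower in the library labelled oncogene, in CPM with a pseudocount of 5, where 7.5% of 7222 genes were that much lower, and 0 were higher, where 6.45% of genes were. On LPD, 10 of the 18 were at least 1.5-fold higher in the library labelled oncogene, where 4.26% of genes were that much higher. None of the synthesis members and 1 export gene were lower, where 3.84% of genes were. On each diet, then, the library with transgene UMIs was the library with the higher levels.

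**Figure D1:**
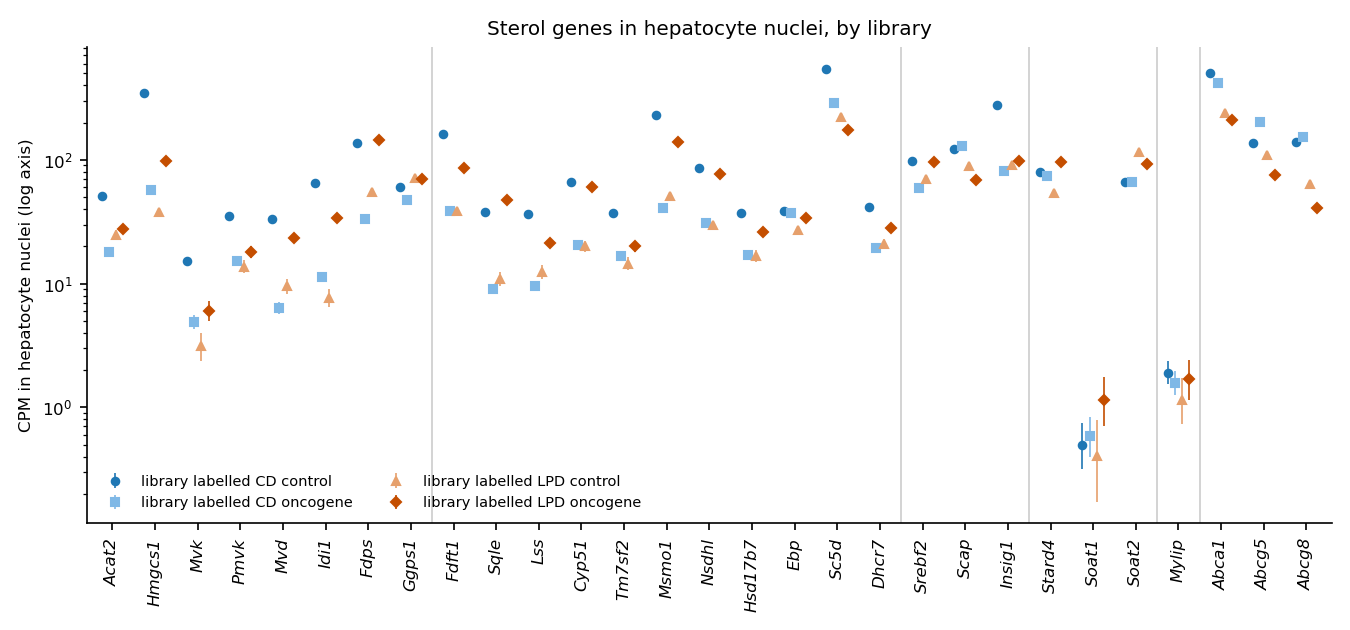
CPM of each of the 29 genes (log axis) in the hepatocyte nuclei of the 4 libraries, with exact 95% Poisson intervals; gray lines part the mevalonate, sterol, control, transport, uptake and export genes from left to right. For most synthesis genes the library labelled CD control is highest and the library labelled LPD oncogene next, and the export genes separate CD from LPD.

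Hmgcs1 was at 346, 56.8, 37.8 and 98.4 CPM in the 4 libraries. It was thus 6.10-fold (5.86 to 6.34) higher in the library labelled CD control than in CD oncogene and 2.60-fold (2.39 to 2.84) higher in LPD oncogene than in LPD control. Idi1, which interconverts the 5-carbon isoprenoid building blocks, was at 65.3, 11.2, 7.67 and 33.8 CPM. Its ratios were 5.81-fold (5.32 to 6.35) on CD and 4.41-fold (3.69 to 5.30) on LPD. Both genes were lowest in libraries without a transgene UMI, and the intervals of the ratios lay far from 1.

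Fdps, which makes farnesyl diphosphate, was at 137, 33.3, 54.9 and 145 CPM, so that the library labelled LPD oncogene reached the level of CD control. Mvd, the decarboxylase of the mevalonate steps, was at 33.3, 6.32, 9.47 and 23.3 CPM. Acat2, the thiolase at the entry, was at 51.2, 18.0, 24.9 and 27.5 CPM, so that it was 2.84-fold (2.63 to 3.06) higher in the library labelled CD control than in CD oncogene but 1.11-fold (0.975 to 1.25) higher in LPD oncogene than in LPD control. Ggps1, which makes geranylgeranyl diphosphate and leads away from sterols, was at 59.8, 47.1, 70.8 and 69.8 CPM. It was the one synthesis member besides Ebp below 1.5-fold on both diets. Mvk, mevalonate kinase, did not pass the filter on low values and was at 15.3, 4.89, 3.11 and 6.02 CPM.

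Among the sterol steps, Sqle, the squalene epoxidase, was at 37.9, 9.07, 10.9 and 47.7 CPM. Its ratios were of like size on the 2 diets, 4.18-fold (3.77 to 4.63) on CD and 4.36-fold (3.76 to 5.09) on LPD, each toward the library with transgene UMIs. Msmo1, the C4 methyl oxidase, was at 228, 41.1, 51.0 and 139 CPM. Fdft1, the squalene synthase, was at 162, 38.6, 38.9 and 85.6 CPM. Cyp51 was at 65.6, 20.5, 19.99 and 60.2 CPM, and Nsdhl at 85.2, 30.9, 29.7 and 76.9 CPM. In all of these the 2 libraries without transgene UMIs were the lowest pair.

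Lss, the cyclase that closes the sterol ring, was 3.81-fold (3.45 to 4.21) higher in the library labelled CD control than in CD oncogene and 1.72-fold (1.46 to 2.03) higher in LPD oncogene than in LPD control. Pmvk, Tm7sf2, Hsd17b7 and Dhcr7 were 2.18- to 2.35-fold higher in the library labelled CD control and 1.31- to 1.54-fold higher in LPD oncogene, the latter short of the threshold with the pseudocount. Ebp, the sterol isomerase, was at 38.3, 37.4, 27.0 and 34.0 CPM. Sc5d, the C5 desaturase, was 1.89-fold (1.85 to 1.92) higher in the library labelled CD control than in CD oncogene but was 1.27-fold (1.21 to 1.33) higher in LPD control than in LPD oncogene, the opposite order from the other sterol enzymes on LPD.

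A set of 10 members, all of them synthesis genes, were at least 1.5-fold lower on CD and at least 1.5-fold higher on LPD in the library labelled oncogene, namely Hmgcs1, Mvd, Idi1, Fdps, Fdft1, Sqle, Lss, Cyp51, Msmo1 and Nsdhl. Of all 7222 genes, 0.775% did so, and 0.886% did the reverse, among them 0 members. With TMM factors or DESeq2 size factors in place of library totals, 9 of the 10 stayed past both thresholds and Lss did not. The difference of the ratio between diets was not tested.

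**Figure D2:**
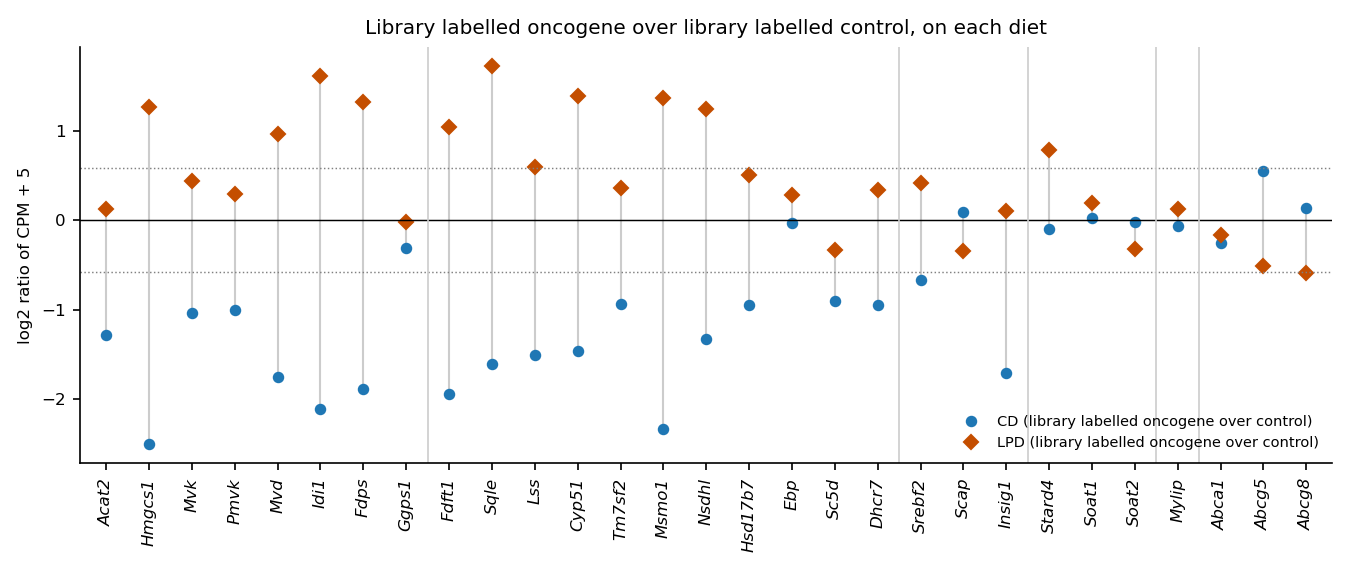
Log2 ratio of CPM plus 5 in hepatocyte nuclei of the library labelled oncogene over the library labelled control, on CD (circles) and LPD (diamonds), for each gene; dotted lines mark 1.5-fold. Most synthesis genes, left of the second gray line, lie below 0 on CD and above 0 on LPD.

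Of the control genes, Insig1 was at 276, 81.2, 91.3 and 98.2 CPM. It was 3.401-fold (3.28 to 3.52) higher in the library labelled CD control than in CD oncogene and 1.08-fold (1.01 to 1.15) higher in LPD oncogene than in LPD control. Srebf2 was at 97.8, 59.7, 70.0 and 95.4 CPM and again followed the transgene UMIs on both diets, at 1.64-fold (1.57 to 1.72) and 1.36-fold (1.27 to 1.46). Scap was at 122, 129, 88.4 and 68.8 CPM. Stard4, a carrier of free cholesterol, was 1.07-fold (1.02 to 1.12) higher in the library labelled CD control and 1.79-fold (1.65 to 1.93) higher in LPD oncogene.

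Abca1 was 1.19-fold (1.17 to 1.22) higher in the library labelled CD control than in CD oncogene and 1.13-fold (1.08 to 1.18) higher in LPD control than in LPD oncogene. The other export genes ran against the synthesis genes on both diets. Abcg5 was 1.48-fold (1.44 to 1.53) higher in the library labelled CD oncogene than in CD control and 1.45-fold (1.36 to 1.56) higher in LPD control than in LPD oncogene. Abcg8 was 1.10-fold (1.07 to 1.14) and 1.56-fold (1.43 to 1.71) higher in the same libraries. In this pair, the library without transgene UMIs was the higher one. Of 27 other pathway genes that passed the filter, 2 were at least 1.5-fold higher and 2 lower in the library labelled oncogene on CD, and 1 was higher and 2 were lower on LPD.

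The share of nuclei with synthesis transcripts followed the summed levels. Each hepatocyte nucleus was thinned to 1000 UMIs, which left out 312 to 437 shallower nuclei per library, and the UMIs of the 19 synthesis genes were counted. In the library labelled CD control 83.0% (82.1 to 83.9) of 7198 nuclei kept at least 1 such UMI, against 48.9% (47.8 to 49.9) of 8660 in CD oncogene. In LPD control the share was 48.3% (47.1 to 49.5) of 6977 nuclei and in LPD oncogene 63.3% (62.1 to 64.5) of 6126. At least 3 UMIs were kept by 32.2%, 4.203%, 4.13% and 13.1% of nuclei in the same order. Before thinning the shares with at least 1 UMI were 98.5%, 88.1%, 76.8% and 86.7%. T or NK nuclei thinned in the same way held at least 1 UMI in 56.3% of 151, 35.0% of 306, 46.2% of 39 and 49.5% of 111 nuclei, at median depths of 1647, 1412.5, 2342 and 1314 UMIs against 5303, 4438, 2414 and 2466 in the hepatocyte nuclei. Kupffer nuclei held at least 1 UMI in 45.2% of 104, 33.3% of 177, 22.3% of 94 and 26.5% of 336 nuclei, at median depths of 1746.5, 1452, 1230.5 and 1259 UMIs. The library labelled CD control was highest in all 3 classes. In T or NK and Kupffer nuclei its interval overlapped that of the next library. The lowest was LPD control in hepatocyte and Kupffer nuclei and CD oncogene in T or NK nuclei. In each class the interval of the lowest library overlapped that of the next lowest. Thinning left out 106 T or NK and 216 Kupffer nuclei of the library labelled LPD control. T or NK and Kupffer nuclei hold free RNA of hepatocytes, whose part in the shares was not tested.

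Within each zone class the summed level of the synthesis genes was highest in the library labelled CD control and next in LPD oncogene. Hepatocyte nuclei of each library were ranked by pericentral less periportal marker genes and cut into 3 classes of equal size. The cuts were made within each library, so a class need not hold like nuclei in every library. With cuts common to all libraries the periportal class held 1546, 4388, 3263 and 957 nuclei. The pericentral class then held 3883, 1940, 1878 and 2452 nuclei. Values below are for the classes of equal size. Summed over the 19 synthesis genes, the pericentral class held 2026 CPM in the library labelled CD control, 735 in CD oncogene, 605 in LPD control and 919 in LPD oncogene. The periportal class held 1936, 673, 744 and 1289 CPM. In both CD libraries the summed level was lowest in the periportal class, and in both LPD libraries it was lowest in the pericentral class.

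**Figure D3:**
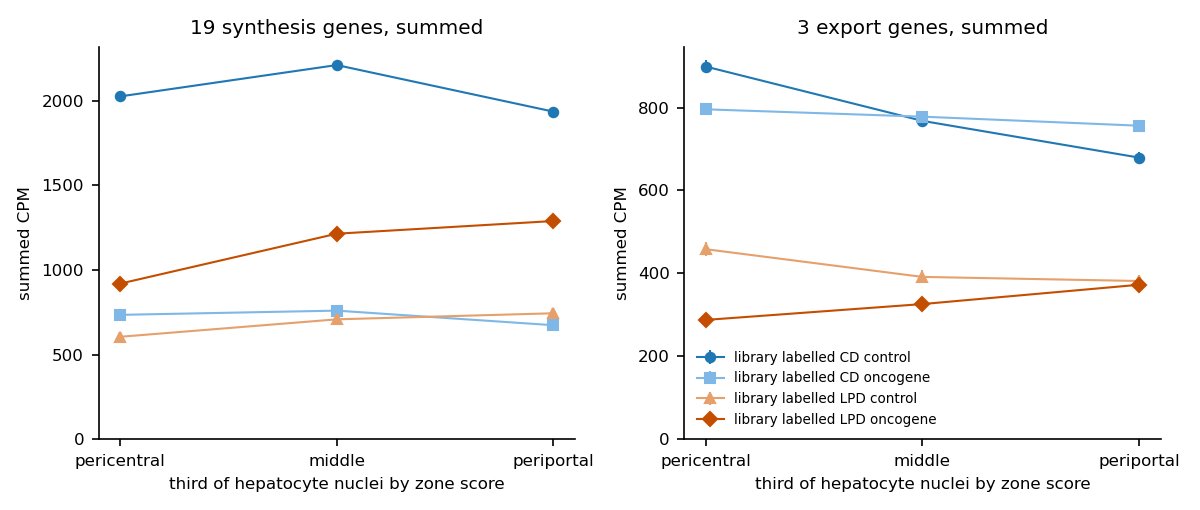
Summed CPM of the 19 synthesis genes (left) and the 3 export genes (right) in the 3 zone classes of hepatocyte nuclei, one line per library, with exact 95% Poisson intervals. Synthesis is highest in the library labelled CD control in every class, and export is higher in both CD libraries than in both LPD libraries in every class.

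The second comparison asked how the members differed between LPD and CD. A gene was called where it was at least 1.5-fold different in the same direction in all 4 pairs made of 1 LPD and 1 CD library, and members were set beside the share of all genes so called. Abca1 and Abcg8, 2 of the 3 export genes, were lower on LPD. They were 2 of the 26 members tested, where 3.23% of 7222 genes were called lower. No synthesis member was called in either direction, although Sc5d was called lower on LPD with TMM factors or DESeq2 size factors, and 0 of 26 members were called higher, where 9.06% of genes were.

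Abca1, which loads cholesterol onto apolipoprotein A-I, was at 504 and 421 CPM on CD and at 237 and 211 CPM on LPD. The CD libraries were 1.77- to 2.39-fold higher over the 4 pairs. Abcg8, which with Abcg5 sends sterols into bile, was at 139 and 153 CPM on CD and 63.5 and 40.7 CPM on LPD, a ratio of 2.18- to 3.76-fold toward CD. Abcg5 was at 136 and 202 CPM on CD and 110 and 75.8 CPM on LPD, 1.24- to 2.67-fold toward CD, so its libraries did not overlap but 1 or more pairs missed the threshold. Abca1 and Abcg8, and no other member, were called lower on LPD in each of the 3 zone classes as well, where 3.14%, 3.27% and 3.15% of genes were called lower from the pericentral to the periportal class. None was called higher there, where 7.66%, 9.34% and 10.4% of genes were. In the pericentral class Abca1 was at 590 and 430 CPM on CD and 269 and 211 CPM on LPD, and in the periportal class at 456 and 419 against 212 and 213 CPM.

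Of the 26 members, 6 had both LPD libraries below both CD libraries (Ebp, Sc5d, Scap, Abca1, Abcg5, Abcg8), where 17.8% of all genes did, and 2 had both LPD libraries above (Ggps1, Soat2), where 46.9% did. Soat2, which esterifies cholesterol in hepatocytes, was at 66.4 and 65.6 CPM on CD and 116 and 92.0 CPM on LPD, 1.38- to 1.78-fold toward LPD. Sc5d was at 539 and 286 CPM on CD and 220 and 174 CPM on LPD, 1.30- to 3.10-fold toward CD. For the other synthesis genes the diets overlapped. Between the libraries without transgene UMIs (LPD control over CD oncogene) 17 of the 18 synthesis members tested were within 1.5-fold. Their median log2 ratio was -0.0024, against 0.245 over all genes. Between the libraries with transgene UMIs (LPD oncogene over CD control) 9 were at least 1.5-fold lower on LPD and 0 higher. The median there was -0.586, against 0.129 over all genes. The share of all genes past 1.5-fold in a single pair is not given here.

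The choice of library changes the count. Without the library labelled CD oncogene, 12 members were lower on LPD, 9 of them synthesis genes, and without the library labelled LPD control 5 were. Fewer pairs have to agree when a library is left out, and the share of all genes then called is not given here. Abca1 and Abcg8 were lower in every such setting and under every alternative tried. Of all genes called, 73.7% were higher on LPD with library totals and 52.9% with TMM factors, and the median log2 ratio of all genes moved from 0.19 to 0.03. Between the CD libraries 46.2% of the genes past 1.5-fold were higher in the library labelled oncogene with library totals and 66.2% with TMM factors. Of 27 other pathway genes tested, 1 was called, Acss2, which makes cytosolic acetyl-CoA from acetate. It was at 568 and 261 CPM on CD and 172 and 169 CPM on LPD.

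The third comparison set the pericentral class against the periportal class, over the 4 libraries as replicates. It used edgeR's quasi-likelihood test, library as a block and Benjamini-Hochberg adjustment over 13892 genes. The classes rest on marker genes, Glul among them, and not on measured position. Per the study, oncogene-expressing hepatocytes lay mostly outside the pericentral zone but took on its expression features. Of the 28 members tested, 7 were higher in the periportal class and 0 in the pericentral class, where 7.95% and 7.65% of all genes were. They were Sqle, Dhcr7, Idi1, Sc5d, Ebp, Insig1 and Stard4. The remaining 21 did not pass, with estimates on both sides of 0.

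Sqle was at 30.9, 7.10, 3.61 and 26.2 CPM in the pericentral class of the 4 libraries and at 41.8, 10.6, 14.9 and 70.3 CPM in the periportal class. It was higher in the periportal class in all 4 libraries, with a log2 ratio of pericentral over periportal of -0.995 (SE 0.205, edgeR adjusted p = 0.0141). Dhcr7, which reduces 7-dehydrocholesterol to cholesterol, was at 35.0, 16.1, 14.5 and 19.2 CPM in the pericentral class and 45.2, 20.2, 27.4 and 34.4 CPM in the periportal class. Its log2 ratio was -0.62 (SE 0.105, edgeR adjusted p = 0.00614). Sc5d, the step before it, was 1.37-fold higher in the periportal class (log2 ratio -0.46, SE 0.0767, edgeR adjusted p = 0.00563). Each of these was higher in the periportal class of 4 of 4 libraries.

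Idi1 was 1.38-fold higher in the periportal class (edgeR adjusted p = 0.0125), Ebp 1.26-fold (edgeR adjusted p = 0.0309), Insig1 1.27-fold (edgeR adjusted p = 0.0124) and Stard4 1.43-fold (edgeR adjusted p = 0.00428), each in 4 of 4 libraries. The export genes did not pass, with log2 ratios of 0.14 for Abca1, -0.17 for Abcg5 and 0.07 for Abcg8. Abcg5 and Abcg8 differed among libraries. In the library labelled LPD oncogene Abcg8 was at 28.4 CPM in the pericentral and 54.4 CPM in the periportal class, and in the library labelled CD control at 160 and 109 CPM.

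**Figure D4:**
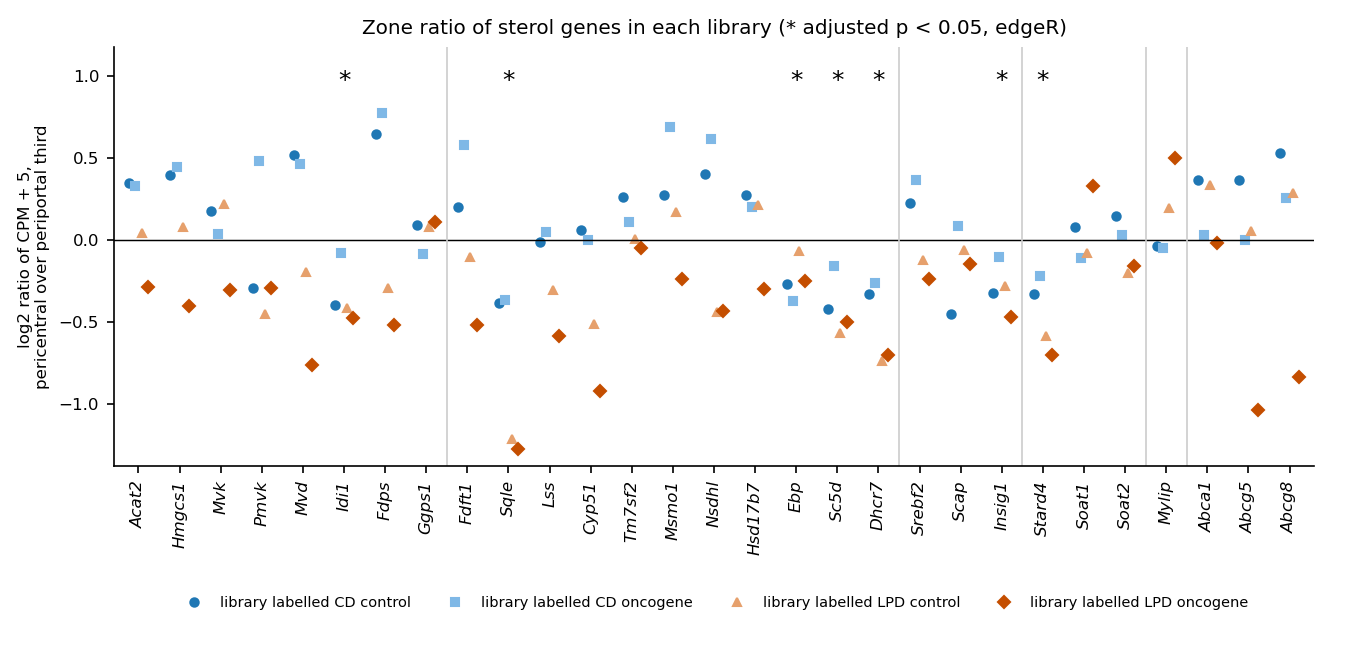
Log2 ratio of CPM plus 5 in the pericentral over the periportal class for each gene and library; stars mark genes with an edgeR adjusted p under 0.05 over the 4 libraries. Starred genes lie below 0 in every library, while for Fdps, Mvd, Nsdhl and Srebf2 the CD libraries lie above 0 and the LPD libraries below.

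Leaving out the library labelled LPD oncogene left 3 of the 7 calls (Sc5d, Dhcr7 and Stard4) and added 1 pericentral call, Abcg8 (log2 ratio 0.32, edgeR adjusted p = 0.0462), leaving out the library labelled CD control left 5, and a fit without the library as a block made 0 calls among members, with 0 at an unadjusted p under 0.05. The fit without the block also called far fewer of all genes than the main fit. DESeq2 made 6 of the 7 calls, Ebp excepted. About 17.1% to 18.97% of hepatocyte nuclei lay within 0.1 SD of a cut between classes. Of 34 other pathway genes, 5 were higher in the periportal class and 2 in the pericentral class. Acly, which makes cytosolic acetyl-CoA from citrate, was 2.55-fold higher in the periportal class (edgeR adjusted p = 0.000268). The others were Srebf1, Erlin1, Pdss1 and Gramd1c on the periportal side, with log2 ratios of -0.36, -0.40, -0.45 and -0.51, and Rnf145 and Gramd1a on the pericentral side, with 0.48 and 0.46.

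The zone ratio was not the same on the 2 diets for 5 synthesis genes. A term for the difference of the zone ratio between LPD and CD, added after the data had been seen, had an edgeR adjusted p under 0.05 for 5 of the 28 members, all 5 lower on LPD, where 0.367% of 13892 genes were called in that direction, 0.655% in the other and 1.02% in either. Fdps was at 167 and 43.1 CPM in the pericentral and 104 and 22.999 CPM in the periportal class of the CD libraries. On LPD it was at 47.6 and 111 CPM in the pericentral and 59.3 and 162 CPM in the periportal class. Its fitted log2 zone ratio was 0.70 on CD and -0.45 on LPD, a difference of -1.15 (SE 0.133, edgeR adjusted p = 0.00517).

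Nsdhl had fitted log2 zone ratios of 0.48 on CD and -0.49 on LPD (edgeR adjusted p = 0.0120 for the difference), and Mvd of 0.61 and -0.70 (edgeR adjusted p = 0.0317). For both, each CD library was higher in the pericentral and each LPD library higher in the periportal class. Cyp51 had ratios of -0.04 and -0.88 (edgeR adjusted p = 0.0335) and Sqle of -0.57 and -1.59 (edgeR adjusted p = 0.0452), so both stood further toward the periportal class on LPD. In all, 17 of the 19 synthesis members had a lower estimate on LPD, as did 15 of the 34 other pathway genes, of which 0 were called. The median log2 difference was -0.489 over the synthesis members, 0.053 over the other pathway genes and 0.002 over all genes. The depth of the libraries moves with diet and cannot be told apart from it here. With the zone score taken from nuclei thinned to 1000 UMIs, 3 of the 28 members were called. The shares of all genes called with this score or with a library left out are not given here. Without the library labelled LPD oncogene 0 members were called, with 6 at an unadjusted p under 0.05.

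The transgene-positive nuclei were compared with the others within the library labelled CD control, since the library labelled LPD oncogene held 5 of them. Of its hepatocyte nuclei 86 held at least 1 transgene UMI, 81 of them in the pericentral class, and 7465 held none. The positive nuclei were deeper, with a median of 7338 UMIs against 5037 in the others, and the part of depth in what follows was not tested. No member was at least 1.5-fold higher in the positive nuclei, where 6.09% of 6618 genes were, and 4 of 26 were at least 1.5-fold lower (Pmvk, Idi1, Dhcr7, Stard4), where 6.62% of genes were. Idi1 was at 33.2 CPM (27 UMIs) in positive and 65.8 CPM in negative nuclei. Most positive nuclei lay in the pericentral class, which rests on marker genes, so the comparison was repeated within it. There 2 of 26 members were lower, Idi1 at 30.7 against 53.9 CPM and Acat2 at 37.1 against 59.5 CPM, beside 3.19% of genes. In that class 0 were higher, beside 1.59%. Hmgcs1 was at 290 against 374 CPM there and Abca1 at 730 against 582 CPM. In all zones together, nuclei of this library without a transgene UMI held Hmgcs1 at 347 CPM, against 56.8 CPM in the library labelled CD oncogene. A nucleus without such a UMI may still hold the transgene, and a comparison of nuclei of 1 library has no test.

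Beyond the hepatocytes, 9 other classes of nuclei were named by their markers. All carried hepatocyte transcripts as free RNA, so the level of a member in a class, relative to hepatocytes, was set beside that of 8 hepatocyte-restricted genes. These 8 had median ratios of 0.225 to 1.26 in sinusoidal endothelial nuclei and 0.179 to 1.03 in Kupffer nuclei. No synthesis member exceeded all 8 in all 4 libraries in any class. Soat1, Mylip, Abca1 and Srebf2 did so in 1 or more classes.

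Soat1, which esterifies cholesterol outside hepatocytes, was at 0.401 to 1.15 CPM in hepatocyte nuclei and at 244, 147, 256 and 341 CPM in Kupffer nuclei, the resident macrophages. Monocyte or dendritic nuclei were next, at 59.2 to 138 CPM. Mylip, a ubiquitin ligase that limits lipoprotein uptake, was at 1.15 to 1.91 CPM in hepatocyte nuclei and highest in sinusoidal endothelial nuclei, at 83.3 to 490 CPM, followed by B nuclei at 117 to 340 CPM. The ranges of the last 2 classes overlap. Both genes were near absent from the hepatocytes and separated from them in all 4 libraries.

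**Figure D5:**
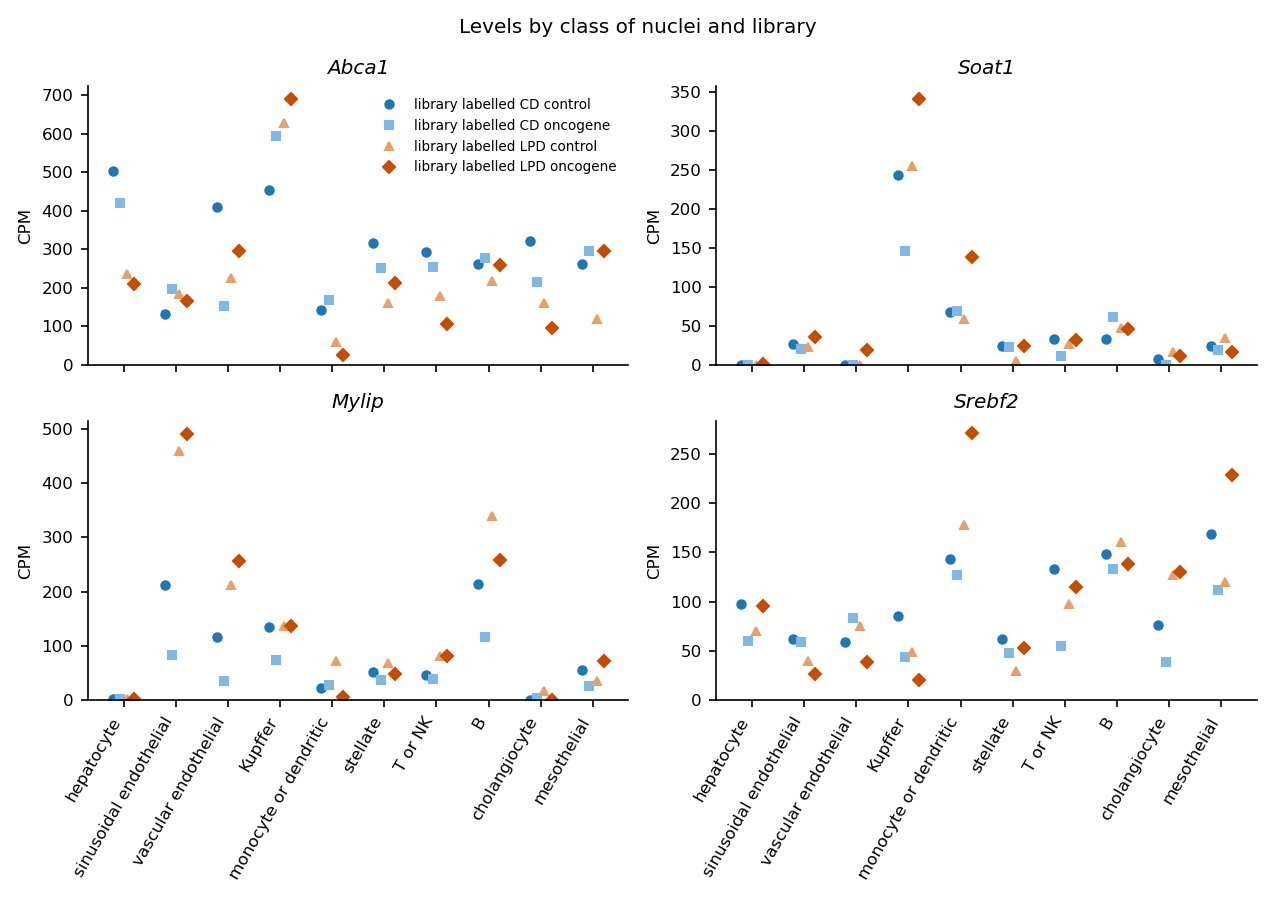
CPM of Abca1, Soat1, Mylip and Srebf2 in 10 classes of nuclei, one point per library, on axes that start at 0. Soat1 is highest in Kupffer nuclei in every library, Mylip is near 0 in hepatocyte nuclei, and Abca1 in Kupffer nuclei does not share the lower LPD levels of hepatocyte nuclei.

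Abca1 in Kupffer nuclei was at 455 and 593 CPM on CD and at 627 and 691 CPM on LPD. Both LPD libraries lay above both CD libraries, the reverse of Abca1 in hepatocyte nuclei, by 1.06- to 1.52-fold, which is below the threshold in 1 or more pairs. The share of all genes so ordered in Kupffer nuclei is not given here, and in hepatocyte nuclei it was 46.9%. Srebf2 exceeded the 8 reference genes in B, monocyte or dendritic and mesothelial nuclei, at 145 CPM (121 to 171), 168 CPM (142 to 198) and 167 CPM (135 to 205) over the 4 libraries together, against 78.7 CPM in hepatocyte nuclei.

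Mylip separated the diets in sinusoidal endothelial nuclei. It was at 212 CPM (180 to 249) and 83.3 CPM (61.4 to 110.5) on CD and at 459 CPM (397 to 528) and 490 CPM (442 to 542) on LPD. Both LPD libraries lay above both CD libraries, by 2.17- to 5.88-fold. It was the 1 member of 16 called higher on LPD in that class, where 8.73% of genes were called higher, and 3 members were called lower (Hmgcs1, Cyp51, Sc5d), where 3.54% of genes were. In Kupffer nuclei 1 of 11 members, Ggps1, was called higher and 1, Sc5d, lower, where 8.47% and 3.79% of genes were. In stellate nuclei 1 of 21, Abcg8, was called lower, where 4.27% of genes were, and 0 higher, where 6.78% were. Hmgcs1, Cyp51, Sc5d and Ggps1 in these classes, and Abcg8 in stellate nuclei, exceeded all 8 reference genes in fewer than 4 libraries, and the part of free RNA in their calls was not tested.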

How the data were processed

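The authors prepared nuclei from frozen liver with 10x Chromium 3′ v3.1 reagents, sequenced them on an Illumina NovaSeq, and deposited a matrix of UMI counts per gene and cell barcode for each library. Per the file headers, Cell Ranger 9.0.1 produced the counts. The sources name mm10 with human c-MET and CTNNB1 added, and whether introns were counted is not given in the sources used here. The deposited counts are raw and were not normalized. The members, gene lists and tests were chosen with earlier results of these data known, and the zone-by-diet term was added after the data had been seen.

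Nuclei with 200 to 7000 genes and at most 21% mitochondrial UMIs were kept. Counts were scaled to 10000 per nucleus, 5000 variable genes without the members or other pathway genes were reduced to 50 principal components, integrated over libraries with Harmony, and clustered with 23 components, 20 neighbours and a Louvain resolution of 0.4 (Python 3.11.15, scikit-learn 1.9.0, igraph 0.11.9). Of 19 clusters, 3 were left out as doublets, and 1 led by haemoglobin genes stayed unnamed. Class markers had to pass 3-fold. UMIs were summed per class and library and divided by the total of mouse genes.

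Comparisons between labels, diets, cell classes and transgene-positive nuclei were not tested. They used a 1.5-fold threshold with a pseudocount of 5 CPM, and intervals are exact Poisson, conditional or binomial intervals of 95%. Folds printed are plain ratios of CPM, except those between zone classes, which come from the log2 ratio of the edgeR fit. Zones were tested with the quasi-likelihood test of edgeR 4.0.16 (R 4.3.3) with TMM factors, and DESeq2 1.42.0 was an alternative. All scripts that test across genes were tested on simulated data. All 29 members are named. Of 34 other pathway genes, those past 1.5-fold in all 4 pairs made of 1 LPD and 1 CD library, or with an adjusted p under 0.05 between zones, are named.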

Additional observations from a re-analysis of the deposited data

Results flagged for a closer look

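A set of 10 synthesis genes stood lower on CD and higher on LPD in the library labelled oncogene, and the difference between diets was not tested. On the log2 scale with a pseudocount of 5 CPM, the ratios of oncogene over control label on CD and on LPD were -2.51 and 1.27 for Hmgcs1, -1.76 and 0.97 for Mvd, -2.11 and 1.62 for Idi1, -1.89 and 1.32 for Fdps, and -1.94 and 1.05 for Fdft1. They were -1.61 and 1.73 for Sqle, -1.51 and 0.60 for Lss, -1.47 and 1.38 for Cyp51, -2.34 and 1.37 for Msmo1, and -1.33 and 1.24 for Nsdhl. Of transgene UMIs on CD, 100 lay in the library labelled control and 0 in that labelled oncogene. Set out by transgene UMIs in place of labels, the same 10 genes were higher on both diets in the library that held these UMIs. The ratios were 2.75- to 6.10-fold on CD and 1.72- to 4.41-fold on LPD. That no sign is then opposite follows from how the 10 genes were chosen, and it says nothing about the labels. Glul, a target of β-catenin per the study, is also a marker of the pericentral class. In that class it was at 1070 CPM in the library labelled CD control and at 182 CPM in CD oncogene. On LPD it was at 346 CPM in LPD control and at 529 CPM in LPD oncogene. Whether the CD labels were exchanged was not tested.

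The zone ratio differed between diets for 5 genes, by a tested difference added after the data had been seen. The log2 ratio of pericentral over periportal on LPD less that on CD was -1.31 for Mvd, -1.15 for Fdps, -1.02 for Sqle, -0.97 for Nsdhl and -0.84 for Cyp51 (edgeR, adjusted p from 0.00517 to 0.0452).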

How the results depend on the processing

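No paired analysis was possible because each group is 1 library and its replicate number pairs nothing. With a library left out in turn, 0 to 1 members were higher and 2 to 12 lower on LPD in hepatocyte nuclei, where fewer pairs have to agree. With the same libraries left out, 3 to 7 members were higher in the periportal and 0 to 1 in the pericentral class. The zone ratio differed between diets for 0 to 10 members in the same settings, 0 without the library labelled LPD oncogene and 10 without CD control, for 2 with the stricter filter of nuclei (at least 500 genes, at most 5% mitochondrial UMIs) and for 3 with the thinned zone score. Without the library as a block, 0 members passed in the periportal class. Far fewer of all genes were called in that fit than in the main fit, so this count does not set the members apart. With TMM factors or DESeq2 size factors 1 member, Abcg5, was past 1.5-fold higher in the library labelled oncogene on CD. On LPD, 0 members were lower in the library labelled oncogene, in place of 1, with a marker gate, without the 8% of nuclei with the most UMIs, with the unnamed cluster, with CPM averaged over nuclei, or with equal weight for the zone classes. With the stricter filter 1 member, in place of 3, exceeded the free RNA reference in mesothelial nuclei. Between nuclei with at least 2 transgene UMIs (9 nuclei) and negative nuclei, 2 members were higher and 8 lower, Pmvk turned to a log2 ratio of 0.31, and in the pericentral class 2 were lower. The 9 nuclei are of 1 library, and the share of all genes past 1.5-fold in this set is not given here. The causes of these shifts were not tested. Except where stated, the share of all genes called in a setting is not given here, so these counts are not set against it. Abca1 and Abcg8 were lower on LPD in every setting tried. Depth limits Soat1 and Mylip in hepatocyte nuclei, with 8 to 31 and 23 to 88 UMIs per library.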
